A study of Homo sapiens with 6 samples.

Results

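The 10 heat shock genes described here are HSPA1A, HSPA1B, HSPA8, HSPH1, DNAJB1, HSP90AA1, HSPE1, HSPD1, HSPB1 and HSF1, chosen by name because export of heat shock mRNA has been linked to the nuclear pore protein TPR and to the transcription factor HSF1. All 10 were among the 58051 genes of the count table, and all 10 passed the filter on low counts that left 16974 genes for testing. Total RNA was sequenced from the human colorectal adenocarcinoma line DLD-1, in which both endogenous copies of TPR carried an auxin-inducible degron (AID) and the fluorescent protein NeonGreen. The same cells carried the TIR1 ligase, which marks AID-tagged proteins for destruction once auxin is added, linked to the endogenous RCC1 gene, and they were 1 edited line grown from a clone. The LMB group (n = 3) received 200 nM Leptomycin B (LMB), an inhibitor of the export receptor CRM1, for 3 h, and the LMB+auxin group (n = 3) received LMB for 1 h and then LMB with 1 mM auxin for 2 h. Both groups therefore shared the tagged TPR, the ligase and the blocked CRM1, and no culture was labelled as heat-shocked. Libraries without LMB, or with auxin alone, were not analysed here, so loss of TPR and any effect of the auxin compound itself cannot be told apart.

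Heat shock proteins are chaperones that keep other proteins folded, and cells also make many of them without stress. On proteotoxic stress HSF1 forms trimers and binds heat shock elements, which are alternating repeats of GAA and TTC in promoters, and the mRNAs of HSP70, HSP90, HSP110, HSP40 and small heat shock proteins rise. The nuclear basket protein TPR binds HSF1 and has been tied to the export of stress-induced HSP70 mRNA. The comparison asked whether the abundance of these mRNAs in whole cells differed once TPR was degraded, and RNA location and protein were not measured in these libraries.

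Total counts ran from 28261903 to 35992425 per library. Of 8 colon epithelial markers 7 were at a mean of at least 1 CPM, a count divided by its TMM-scaled library total, with summed levels of 7090 to 7212 CPM in the LMB libraries and 7042 to 7587 CPM with auxin. The exception was LGALS4, at 0.139 to 0.338 CPM. Summed leukocyte, fibroblast and endothelial markers did not exceed 2.25, 1.17 and 5.66 CPM in any library, with PTPRC at 0 to 0.0347 and CDH5 at 0 to 0.104 CPM. The mRNA of TPR stood at 163, 157 and 180 CPM in LMB and at 192, 185 and 187 CPM in LMB+auxin, a log2 difference of 0.17 (SE 0.05, edgeR adjusted p = 0.0136) in the fit with replicate number as a block. The adjusted p was 0.954 without the block and 0.0988 in DESeq2 with it. Auxin acts on the tagged protein, so this mRNA does not report its loss.

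The upstream sequences of the members are shown because they carry the elements through which HSF1 is known to act. In the RefSeq promoter table (GRCh38.p14), the 250 bases before each start were searched for GAANNTTC and TTCNNGAA, each of which reads the same on both strands, with overlaps allowed. At least 1 of these motifs was held by 4067 of 35116 windows, or 11.6%, and 155, or 0.441%, held 3 units in a row, alternating in direction and spaced by 2 bases. A motif was found for 7 of the 9 matched members, and HSPA8, HSP90AA1 and HSPD1 held 3 units in a row. HSPH1 and HSPE1 held none in this window, and the table's start of HSPH1 lay 484 bases from that of the canonical transcript. HSF1 had no entry in the table. Capitals mark the motifs, and each stretch reads 5′ to 3′ on the strand of its gene.
HSPA1A, chr6:31815393-31815542, plus strand: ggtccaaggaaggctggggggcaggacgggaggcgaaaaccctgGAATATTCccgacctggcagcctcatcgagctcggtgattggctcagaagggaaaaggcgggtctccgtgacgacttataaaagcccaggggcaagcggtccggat
HSPA1B, chr6:31827588-31827737, plus strand: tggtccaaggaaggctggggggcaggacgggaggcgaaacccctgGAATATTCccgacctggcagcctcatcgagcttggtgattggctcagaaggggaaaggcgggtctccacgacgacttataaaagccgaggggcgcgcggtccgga
HSPA8 upstream stretch, chr11:123062348-123062372, minus strand: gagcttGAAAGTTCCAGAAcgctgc
HSPA8 stretch nearer the start, chr11:123062173-123062197, minus strand: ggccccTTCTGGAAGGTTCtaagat
DNAJB1, chr19:14518417-14518494, minus strand: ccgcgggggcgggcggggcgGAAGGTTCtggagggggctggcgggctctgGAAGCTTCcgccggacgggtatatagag
HSP90AA1, chr14:102087085-102087152, minus strand: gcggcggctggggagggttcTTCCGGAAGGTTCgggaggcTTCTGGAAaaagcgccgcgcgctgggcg
HSPD1, chr2:197500062-197500090, minus strand: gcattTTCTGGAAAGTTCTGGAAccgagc
HSPB1, chr7:76302471-76302518, plus strand: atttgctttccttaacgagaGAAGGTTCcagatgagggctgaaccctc

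These stretches differ in how many motif units they hold and where the units sit. The single GAATATTC of HSPA1A began at position -106 from its start and that of HSPA1B at -105, and 235 aligned bases of their 250-base upstream windows were identical, with 14 mismatches and 2 gaps (93.6% identity). In HSPA8 the motifs began at positions -230 to -50, while those of HSP90AA1 began at -88 to -68. DNAJB1 had its pair at -77 and -47, and the motif of HSPB1 was at -182. The HSPD1 run of 18 bases lay between the canonical starts of HSPD1 and HSPE1, genes that face away from each other with these starts 539 bases apart. The run was 294 to 311 bases upstream of the canonical start of HSPE1 and therefore outside the window searched for that gene. This run and the stretches of HSPA8, HSP90AA1 and DNAJB1 lie inside the annotated span of their own gene, as other transcripts start further upstream. Annotated exons of those transcripts lie at or next to the HSPD1 run and the HSPA8 stretches. The stretches of HSP90AA1 and DNAJB1 held no annotated exon bases of their gene. A motif match describes these letters and does not show binding.

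The members spanned a wide range of abundance. Levels are compared between genes as RPKM, CPM per kilobase of all annotated exons of a gene merged, averaged over the 6 libraries. This length exceeds the canonical transcript for most members, so the order below holds for this measure only. HSPA8 has 4849 merged bases against 2264 in its canonical transcript, HSP90AA1 5097 against 3228, and DNAJB1 8188 against 2242. HSF1 has 5305 against 2134, while HSPA1B has 2517 in both. By this measure HSP90AA1 had the highest level, at 633 RPKM (571 to 698), above 99.8% of tested genes. HSPA8, the constitutive HSP70, followed at 575 RPKM (496 to 621), and the ranges of these genes overlapped. HSPD1 stood at 192 RPKM (166 to 227), apart from its neighbours in the order. HSPE1 at 113 RPKM (106 to 125) and HSPB1 at 102 RPKM (75.4 to 125) overlapped each other. HSPH1 was at 29.0 RPKM (27.0 to 32.4), above all libraries of the lower members. HSPA1B at 15.6 RPKM (11.4 to 19.4), HSF1 at 11.5 RPKM (9.92 to 12.4) and DNAJB1 at 11.3 RPKM (9.38 to 13.6) overlapped and could not be ordered by their ranges on this measure. HSPA1A was lowest, at 0.472 RPKM (0.419 to 0.533), with only 6.7% of tested genes below it. HSPA1B, HSF1 and DNAJB1 had 79.0%, 72.6% and 72.3% of tested genes below them. The levels and ranks of HSPA1A and HSPA1B are uncertain, since 72.4% and 68.9% of their 100-base windows also occur in another gene. How reads from such windows were counted is not given in the sources used here.

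**Figure D1:**
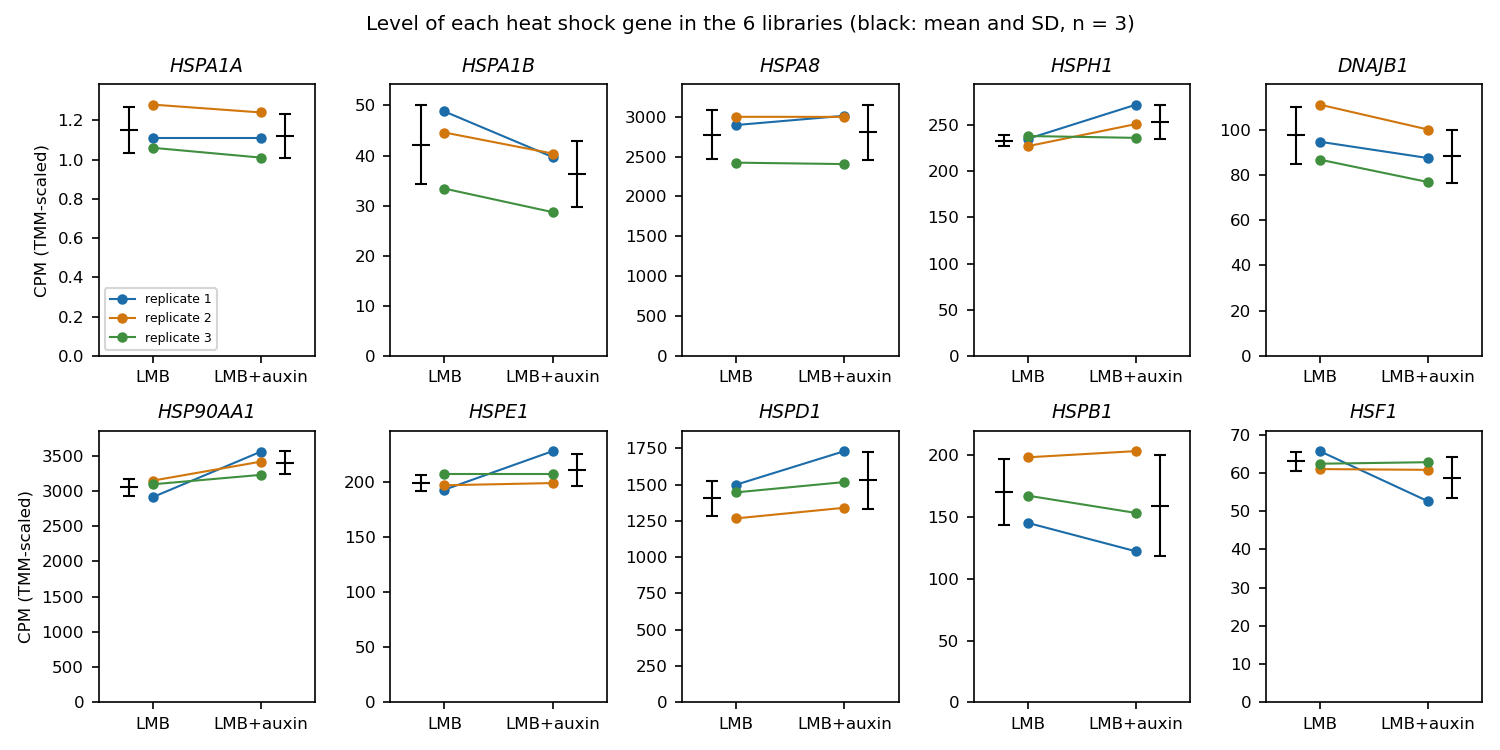
Level of each of the 10 heat shock genes in CPM (vertical axis, linear, from 0) in the LMB and LMB+auxin libraries, with a line joining libraries of the same replicate number and black marks for the mean and SD (n = 3). HSP90AA1 is the only member whose LMB+auxin libraries (3228 to 3558 CPM) all lie above its LMB libraries (2912 to 3146 CPM), and the lines of HSPA1B, DNAJB1 and HSPB1 keep the order of the replicate numbers in both groups except for replicates 1 and 2 of HSPA1B.

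No member was called changed by auxin. By the quasi-likelihood test of edgeR, where a call needs an adjusted p (Benjamini-Hochberg) under 0.05 together with at least a 1.3-fold difference, 0 of 10 members were called beside 1 of all tested genes (0.00589%), and 0 of 10 had an unadjusted p under 0.05 beside 4.37% of all tested genes. The same call by DESeq2 gave 0 members beside 0.0648% of tested genes, and limma-voom gave 0 beside 0.00589%. At an unadjusted p under 0.05 each of these tools named HSP90AA1 alone, where DESeq2 named 3.1% and limma-voom 4.44% of all tested genes. The median log2 fold change of the members was -0.01, with 5 positive and 5 negative, and that of all tested genes was -0.0027. Since fewer cells of a type and less RNA per cell cannot be told apart in bulk libraries, each value is a level relative to all RNA counted.

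Libraries of the same replicate number resembled each other, and a second fit with the replicate number as a block compared the treatments within numbers. Again 0 of 10 members were called, beside 1.18% of all tested genes, and DESeq2 with the block also called 0, beside 0.177%. At the adjusted p alone, with no fold threshold, 1 member passed as higher (HSP90AA1) beside 1.11% of all tested genes, and 1 passed as lower (HSPA1B) beside 3.25%. At an unadjusted p under 0.05 there were 6 members with the block in edgeR, beside 19.9% of all tested genes, and 5 in DESeq2, beside 7.92%. The 95% intervals with the block lay inside 1.3-fold either way for 9 of 10 members, the exception being the sparsely counted HSPA1A. Without the block 6 of 10 did. The median within replicate pairs 1, 2 and 3 was 0.03, 0.01 and -0.01 on the log2 scale over the members.

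**Figure D2:**
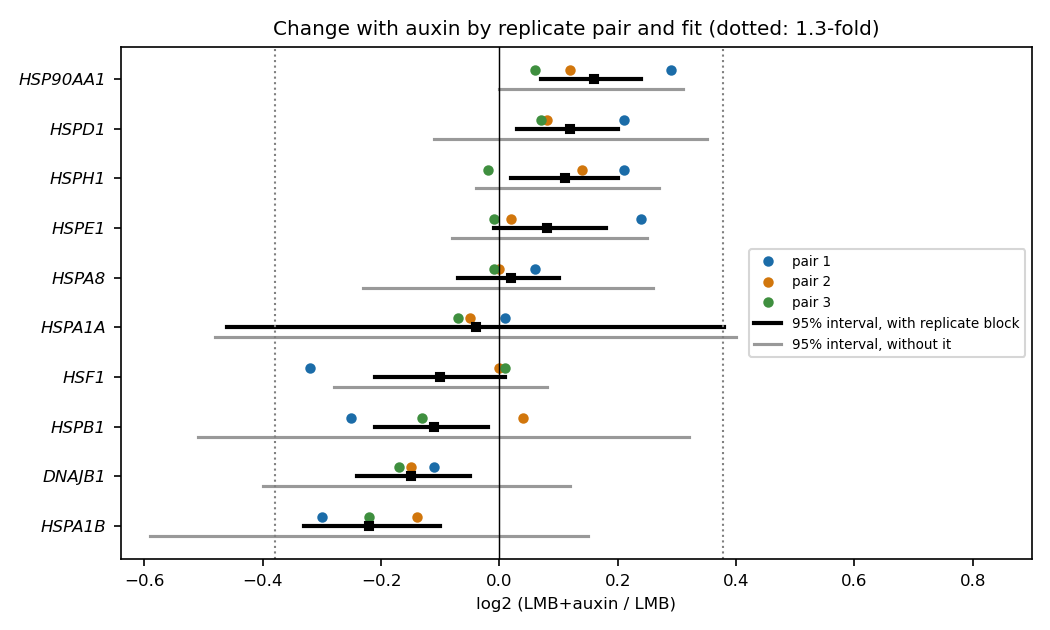
Log2 ratio of LMB+auxin over LMB (horizontal axis) for each member, with a point per replicate pair, a square and black line for the estimate and 95% interval with the replicate block, a grey line for the interval without it, and dotted lines at 1.3-fold. Intervals with the block exclude 0 for 6 members, from HSPA1B at -0.22 to HSP90AA1 at 0.16, and only that of HSPA1A crosses a dotted line.

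HSF1 (ENSG00000185122, 13 exons, chromosome 8, 144291591 to 144314720, plus strand, GRCh38), the transcription factor that drives the heat shock response, was near the same level in 5 of 6 libraries. It was at 65.7, 61.0 and 62.4 CPM in LMB and at 52.6, 60.8 and 62.8 CPM in LMB+auxin. The lowest value was that of LMB+auxin replicate 1, and the groups overlapped. The means were 63.0 ± 2.42 and 58.7 ± 5.39 CPM (SD, n = 3). The log2 fold change was -0.10 (SE 0.08, 95% interval -0.28 to 0.08) without the block, with pair differences of -0.32, -0.00 and 0.01. Without LMB+auxin replicate 1 the estimate was -0.028, and in the block without replicate 1 of both groups it was 0.002. Exons of HSF1 share 137 bases with those of DGAT1 and 131 with the long noncoding gene ENSG00000254690 on the opposite strand, and the strand setting of the counting was not given in the sources used here. With the block, DGAT1 was at -0.12 on the log2 scale (adjusted p = 0.18), whereas ENSG00000254690 was at -0.01 (adjusted p = 0.971).

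HSP90AA1 (ENSG00000080824, 11 exons, chromosome 14, 102080742 to 102139699, minus strand), the stress-inducible cytosolic HSP90, was the single member without overlap between groups, beside 11.5% of all tested genes. It was at 2912, 3146 and 3094 CPM in LMB and at 3558, 3416 and 3228 CPM in LMB+auxin, or 3051 ± 123 and 3400 ± 165 CPM (SD, n = 3). All 3 pairs were higher with auxin, and pair 1 differed most. The pair differences were 0.29, 0.12 and 0.06 on the log2 scale. The edgeR log2 fold change was 0.16 (SE 0.07, 95% interval -0.00 to 0.31, adjusted p = 0.954) without the block. With the block the same size had an SE of 0.04 and an interval of 0.07 to 0.24 (adjusted p = 0.0229). This was under the fold threshold, and the pass was lost in DESeq2 with the block (adjusted p = 0.0957) and in the edgeR block without replicate 1, 2 or 3 of both groups (adjusted p = 0.151, 0.12 and 0.185). Without replicate 1 the log2 fold change fell from 0.16 to 0.09. WDR20, which shares 197 exonic bases with HSP90AA1 on the opposite strand, differed in the other direction. Its levels were 22, 22.8 and 22.3 CPM in LMB and 18.9, 18.6 and 17.6 CPM in LMB+auxin, with a log2 fold change of -0.28 (SE 0.07, adjusted p = 0.00532) with the block, an adjusted p of 0.954 without it and one of 0.224 in DESeq2 with the block.

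HSPA1A and HSPA1B, the stress-inducible HSP70 genes, are near-identical copies of 1 exon each on chromosome 6. HSPA1A (ENSG00000204389, 31815543 to 31817946, plus strand) was at 1.11, 1.28 and 1.06 CPM in LMB and at 1.11, 1.24 and 1.01 CPM in LMB+auxin, from only 32 to 40 counts per library. HSPA1B (ENSG00000204388, 31827738 to 31830254, plus strand) was at 48.8, 44.6 and 33.4 CPM in LMB and at 39.7, 40.4 and 28.7 CPM in LMB+auxin, from 912 to 1407 counts. Both groups had their lowest HSPA1B level in replicate 3, and the groups overlapped for both genes. Of the 100-base windows along the HSPA1A transcript 72.4% also occur in another gene, most often HSPA1B, as do 68.9% of those of HSPA1B. How the counting treated such reads was not given in the sources used here, so the division between the copies is uncertain and their sum is given as well. Any reads left uncounted for both copies would be missing from the sum too.

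HSPA1B was lower with auxin in 3 of 3 pairs, at -0.30, -0.14 and -0.22 on the log2 scale. The means were 42.2 ± 7.97 CPM without auxin and 36.3 ± 6.55 CPM with it (SD, n = 3), a difference smaller than either SD. The edgeR log2 fold change was -0.22 (SE 0.16, 95% interval -0.59 to 0.15, adjusted p = 0.954) without the block and -0.22 (SE 0.06, interval -0.33 to -0.10, adjusted p = 0.0140) with it. As with HSP90AA1, this was below 1.3-fold and did not pass in DESeq2 with the block (adjusted p = 0.234) or in the edgeR block without replicate 1, 2 or 3 of both groups (adjusted p = 0.0569, 0.0692 and 0.323). Without the block, leaving out 1 library moved the log2 fold change between -0.069 (without LMB+auxin replicate 3) and -0.364 (without LMB replicate 3), and it was -0.102 when LMB replicate 1 was left out. The sum of the copies was 49.9, 45.8 and 34.4 CPM in LMB and 40.8, 41.7 and 29.7 CPM in LMB+auxin. With the block its log2 fold change was -0.21 (SE 0.06, adjusted p = 0.0162), close to that of HSPA1B alone. HSPA1A by itself had a log2 fold change of -0.04 with the wide interval of -0.46 to 0.38.

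HSPA8 (ENSG00000109971, 9 exons, chromosome 11, 123057489 to 123063230, minus strand), the constitutive cytosolic HSP70, showed almost no difference with auxin. It was at 2896, 2999 and 2424 CPM in LMB and at 3012, 2998 and 2406 CPM in LMB+auxin. Replicate 3 was the lowest in each group. The log2 fold change with the block was 0.02 (SE 0.04, 95% interval -0.07 to 0.10). Its sign was negative in several fits that left out a replicate, down to -0.071 without LMB replicate 3.

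HSPA8 is also host to small nucleolar RNAs that guide modification of ribosomal RNA. SNORD14E was at 7.31, 8.02 and 5.84 CPM in LMB and 7.57, 5.56 and 5.16 CPM in LMB+auxin, with a log2 fold change of -0.21 (adjusted p = 0.226) with the block. SNORD14C and SNORD14D, which share 88 and 87 bases with annotated HSPA8 exons, had -0.14 (adjusted p = 0.634) and 0.07 (adjusted p = 0.854). None of the 3 passed the test.

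HSPH1 (ENSG00000120694, 18 exons, chromosome 13, 31134973 to 31162388, minus strand) encodes HSP110, a nucleotide exchange factor for HSP70. It was at 235, 227 and 238 CPM in LMB and at 272, 251 and 236 CPM in LMB+auxin. Replicates 1 and 2 were higher with auxin and replicate 3 was not, so the groups overlapped. The log2 fold change was 0.12 (SE 0.07, 95% interval -0.04 to 0.27, adjusted p = 0.954) without the block and 0.11 (SE 0.05, interval 0.02 to 0.20, adjusted p = 0.138) with it. Without LMB+auxin replicate 1 it was 0.059, and in the block it was 0.064 without replicate 1 and 0.184 without replicate 3 of both groups.

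DNAJB1 (ENSG00000132002, 3 exons, chromosome 19, 14514769 to 14560391, minus strand) encodes the main inducible HSP40, a J-protein that stimulates HSP70 and also represses HSF1. It was at 94.6, 111 and 86.7 CPM in LMB and at 87.4, 100 and 76.8 CPM in LMB+auxin. All 3 pairs were lower with auxin by a similar amount (-0.11, -0.15 and -0.17), yet the groups overlapped because the replicate numbers differed more than the treatments. The log2 fold change was -0.14 (SE 0.12, 95% interval -0.40 to 0.12) without the block and -0.15 (SE 0.05, interval -0.24 to -0.05, adjusted p = 0.0697) with it. Without the block it shrank to -0.030 on omission of LMB replicate 2 and to -0.049 on omission of LMB+auxin replicate 3. It grew to -0.223 when LMB replicate 3 was dropped and to -0.246 when LMB+auxin replicate 2 was. The adjusted p with the block was 0.0174 without replicate 1 of both groups and 0.0383 with scaling by library size alone, again under the fold threshold. DNAJB1 shares 525 exonic bases with TECR on the opposite strand, whose difference with the block was -0.03 on the log2 scale (adjusted p = 0.804).

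HSPD1 and HSPE1 encode HSP60 and HSP10, the mitochondrial chaperonin and its co-chaperonin, and lie head to head on chromosome 2. HSPD1 (ENSG00000144381, 12 exons, 197486584 to 197516737, minus strand) was at 1499, 1267 and 1446 CPM in LMB and at 1730, 1340 and 1517 CPM in LMB+auxin. HSPE1 (ENSG00000115541, 4 exons, 197500140 to 197503449, plus strand) was at 193, 197 and 207 CPM in LMB and at 228, 199 and 207 CPM in LMB+auxin. For both genes the largest difference was in pair 1 (0.21 for HSPD1 and 0.24 for HSPE1 on the log2 scale), and the groups overlapped. With the block the log2 fold change was 0.12 (SE 0.04, 95% interval 0.03 to 0.20, adjusted p = 0.0945) for HSPD1 and 0.08 (SE 0.05, interval -0.01 to 0.18, adjusted p = 0.306) for HSPE1. Both rested in part on replicate 1, since without that number in both groups the block gave 0.075 for HSPD1 and 0.006 for HSPE1. Without the block, leaving out 1 library moved HSPD1 between 0.025 (without LMB+auxin replicate 1) and 0.212 (without LMB+auxin replicate 2), with 0.062 without LMB replicate 2, and HSPE1 between 0.027 (without LMB+auxin replicate 1) and 0.127 (without LMB+auxin replicate 2). Their annotated exons share 135 bases on opposite strands, and HSPE1 shares 192 bases on its own strand with the readthrough gene HSPE1-MOB4, whose log2 fold change was 0.07 (adjusted p = 0.382). Of the 100-base windows of HSPE1 11.6% also occur in genes that do not overlap it, mostly the pseudogene HSPE1P3, beside 4.29% for HSPD1. Windows shared with overlapping genes such as HSPE1-MOB4 were not counted.

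HSPB1 (ENSG00000106211, 3 exons, chromosome 7, 76302673 to 76304295, plus strand) encodes HSP27, a small heat shock protein that holds unfolded proteins. It was at 145, 198 and 167 CPM in LMB and at 122, 203 and 153 CPM in LMB+auxin. Both groups had the order replicate 2, 3, 1 from high to low, and the level was lower with auxin in pairs 1 and 3 but not in pair 2. The log2 fold change was -0.10 (SE 0.18, 95% interval -0.51 to 0.32, adjusted p = 0.968) without the block and -0.11 (SE 0.05, interval -0.21 to -0.02, adjusted p = 0.162) with it.

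The members also differed between replicate numbers, as did many other genes. In the fit with both terms, the replicate terms of 5 of 10 members passed an adjusted p of 0.05 (HSPA1B, HSPA8, DNAJB1, HSPD1 and HSPB1), beside 33.7% of all tested genes. The likelihood ratio test of DESeq2 also passed 5 members, beside 14.8% of all tested genes. HSPB1 had the widest spread, with replicate number 2 standing 1.5-fold above number 1 (edgeR adjusted p = 5.0e-14). HSPA1B was 1.42-fold higher in number 1 than in number 3 (adjusted p = 2.8e-09), and DNAJB1 1.3-fold higher in number 2 than in number 3 (adjusted p = 1.1e-06). HSPA8 and HSPD1 each spanned 1.24-fold, but in different orders, since HSPA8 was lowest in number 3 (adjusted p = 4.5e-07) and HSPD1 in number 2 (adjusted p = 7.3e-06). HSP90AA1, HSPE1, HSF1 and HSPH1 spanned 1.04-fold to 1.07-fold, with adjusted p between 0.285 and 0.732. The spread of HSPA1A was 1.22-fold (adjusted p = 0.654). The highest replicate number was thus not the same for all 5 genes. What sets the cultures of one number apart is not in the labels.

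**Figure D3:**
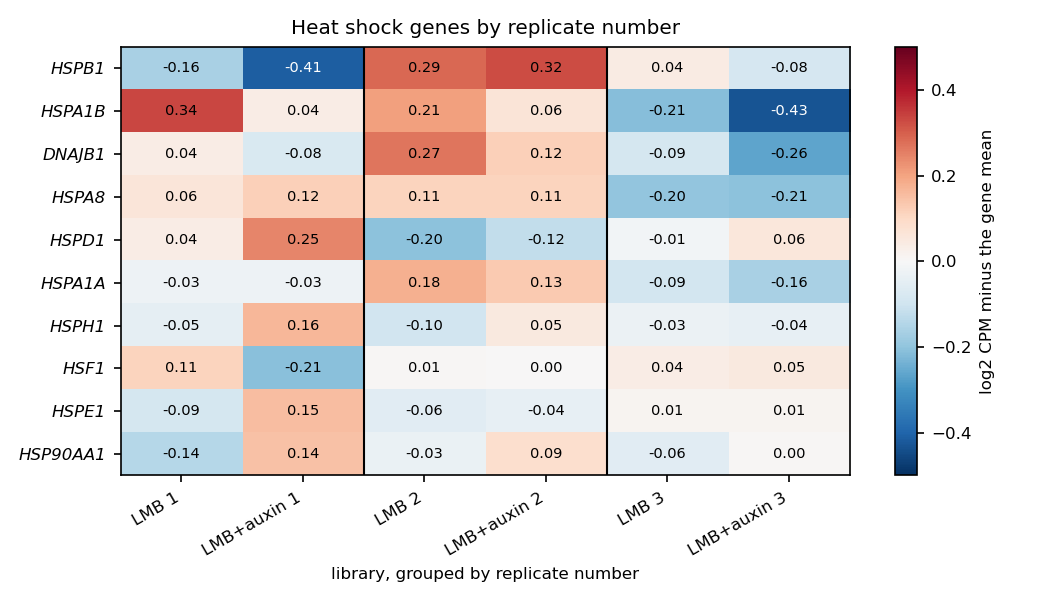
Log2 CPM of each member minus its mean over the 6 libraries (colour and printed values), with members ordered by their spread between replicate numbers and libraries grouped by number. HSPB1 is positive in both replicate 2 libraries and negative in both replicate 1 libraries, and HSPA1B and HSPA8 are negative in both replicate 3 libraries. HSP90AA1 at the bottom is higher with auxin within each number, as is HSPD1, while HSPA1B and DNAJB1 are lower within each number.

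Of 76 distinct tested genes in 10 related lists 1 was called with the block, or 1.32%, near the 1.18% of all tested genes. Across these lists, edgeR without the block called 0 genes, as did DESeq2 with and without the block and limma-voom. The gene called with the block was IER5 (ENSG00000162783), an immediate early HSF1 target whose protein promotes HSF1 activity. It was at 33.1, 25.3 and 28.4 CPM in LMB and at 23.0, 20.4 and 23.0 CPM in LMB+auxin. All 3 LMB+auxin libraries were below all 3 LMB libraries, and the groups did not overlap for 11.5% of all tested genes. Its log2 fold change was -0.38 in both fits, at the edge of the fold threshold, with an SE of 0.11 (adjusted p = 0.954) without the block and 0.06 (adjusted p = 1.7e-05) with it. Without replicate 1 of both groups it was -0.30 and no longer called. DESeq2 with the block gave -0.37 (adjusted p = 0.0143). The 250 bases upstream of IER5 held 1 of the motifs above, beginning at position -226 from its start, where 11.6% of all windows held at least 1. The same windows of HSPA5, DNAJB9 and HSP90AB1, described below, held none. Most other genes of the lists, FKBP5 among them, were not looked up by name. A link between motif and change was not tested.

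Other HSF1 target genes had 16 of 18 tested, with a median log2 fold change of 0.01 in both fits, against -0.0034 for all tested genes with the block. UBB, a ubiquitin gene and the most abundant of the list, had a log2 fold change of -0.02 (adjusted p = 0.806) with the block. BAG3, CHORDC1, HSPA4L, DNAJA1 and STIP1 are counted in this list and also in those of their families.

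In the HSP70 and HSP110 family 10 of 12 genes were tested, with a median log2 fold change of 0.06. HSPA6, a strictly stress-inducible HSP70, did not pass the filter, at 0.445 to 0.867 CPM. HSPA5, the HSP70 of the endoplasmic reticulum, was named after its values were seen as the 1 gene of the list that passed the adjusted p alone with the block. It was at 410, 601 and 489 CPM in LMB and at 481, 712 and 510 CPM in LMB+auxin, higher in 3 of 3 pairs while the groups overlapped. Its log2 fold change was 0.18 (SE 0.04, edgeR adjusted p = 0.00601, and 0.0259 in DESeq2 with the block). HSPA9, the mitochondrial HSP70, had 0.10 (adjusted p = 0.149), and HSPA2 had -0.23 (adjusted p = 0.302), both with the block.

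No HSP90 family gene other than HSP90AA1 passed. HSP90AB1, the constitutive cytosolic form, was at 2342, 2133 and 2423 CPM in LMB and at 2556, 2320 and 2525 CPM in LMB+auxin, with a log2 fold change of 0.10 (SE 0.04, adjusted p = 0.161) with the block. HSP90B1, the form of the endoplasmic reticulum, had 0.12 (adjusted p = 0.0954). The median of the 3 genes was 0.10. None of the 8 other small heat shock protein genes passed the filter on low counts.

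Of 15 listed DNAJ co-chaperones (DNAJA and DNAJB genes together with DNAJC2, DNAJC3 and DNAJC7) 14 were tested, with a median log2 fold change of 0.06. DNAJB9, a J-protein of the endoplasmic reticulum, passed the adjusted p alone with the block as lower. DNAJB9 was at 21.0, 23.4 and 19.0 CPM in LMB and at 16.7, 16.6 and 17.4 CPM in LMB+auxin, without overlap. The same held for 4 of the 14 tested genes of this list, DNAJB9 included, beside 11.5% of all tested genes. The log2 fold change of DNAJB9 was -0.32 (SE 0.07, edgeR adjusted p = 0.00197). DESeq2 with the block gave an adjusted p of 0.205. DNAJB5 had an unadjusted p of 0.0402 without the block and a log2 fold change of 0.57 (adjusted p = 0.117) with it, at only 0.723 to 1.51 CPM. DNAJA1, the most abundant of the list, had 0.08 (adjusted p = 0.267).

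All 19 HSP70 exchange factors and HSP90 co-chaperones were tested, with a median of -0.00 and 10 positive values without the block. FKBP5, an HSP90-bound immunophilin, was at 43.8, 57.5 and 51.6 CPM in LMB and at 52.6, 63.4 and 56.5 CPM in LMB+auxin, with a log2 fold change of 0.18 (SE 0.05, adjusted p = 0.0393) with the block and an adjusted p of 0.256 in DESeq2. PTGES3, the co-chaperone p23, had 0.09 (adjusted p = 0.206). The 8 subunits of the cytosolic chaperonin CCT, which folds actin and tubulin, lay between 0.02 and 0.11 with a median of 0.09, and none passed the test. All 8 were positive in both fits, beside 8359 of 16974 tested genes without the block. Without the block the adjusted p of FKBP5, HSPA5 and DNAJB9 was 0.954 each. CCT6A, CCT8 and CCT4 had 0.10 (adjusted p = 0.172), 0.11 (adjusted p = 0.131) and 0.10 (adjusted p = 0.174).

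Of the heat shock factors and HSF1 partners all 4 were tested and none passed, with a median of -0.01. HSF4 had the lowest p of the list, 0.0507 without the block, at 5.65, 4.17 and 4.53 CPM in LMB and 3.24, 4.29 and 3.56 CPM in LMB+auxin. With the block it was at -0.37 on the log2 scale (SE 0.13, adjusted p = 0.0732). HSBP1, which binds and restrains HSF1, had 0.09 (adjusted p = 0.315). Of 70 processed pseudogenes of the members 4 passed the filter, and the log2 fold changes of the 2 with the lowest p, HSP90AA2P and HSPD1P1, were 0.08 (adjusted p = 0.673) and -0.08 (adjusted p = 0.762).

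**Figure D4:**
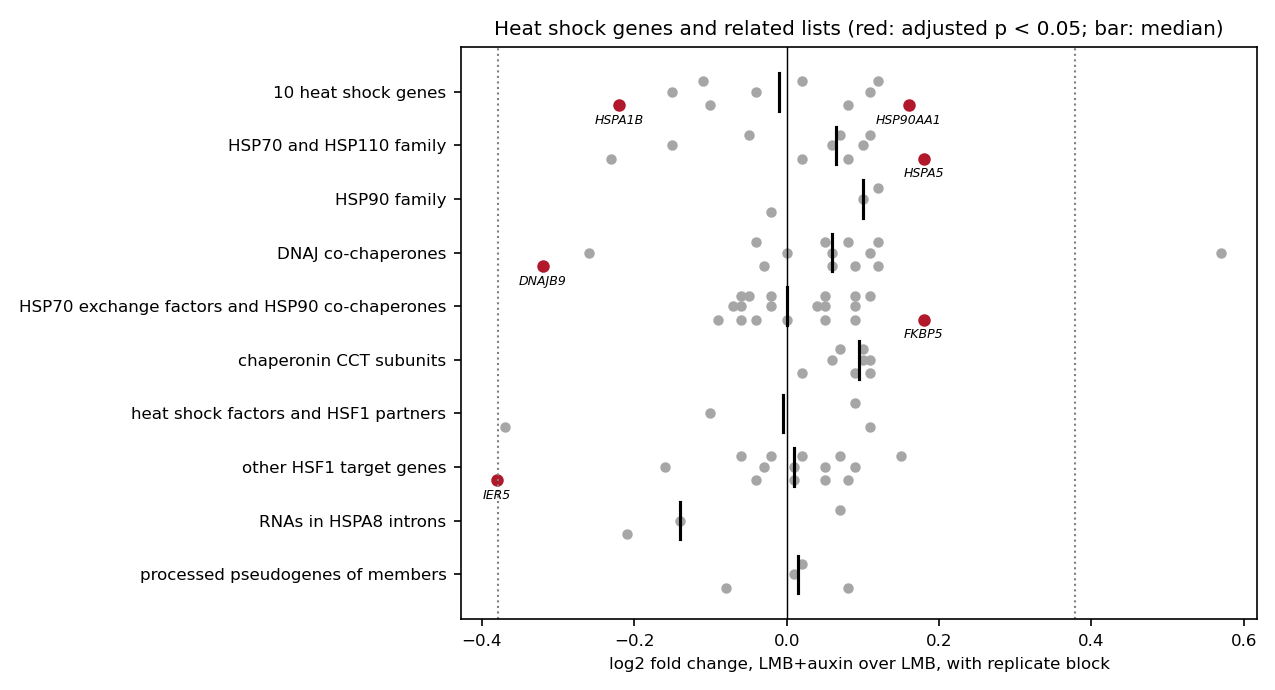
Log2 fold change of LMB+auxin over LMB with the replicate block (horizontal axis) for the members and for the tested genes reported from the related lists, with a black bar at the median, dotted lines at 1.3-fold, and red, named points for genes with an adjusted p under 0.05. IER5 is the only red point that reaches a dotted line, at -0.38, and the medians lie between -0.14 and 0.10.

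The genes whose pattern over the 6 libraries lay closest to that of the HSPA1A and HSPA1B sum were sought among 10494 genes with a mean of at least 10 CPM. The measure was the root mean square distance between centred log2 CPM profiles, whose median over these genes was 0.275. JUN, a subunit of the transcription factor AP-1, was closest at 0.084, followed by CEBPB, another transcription factor gene, at 0.099. SEC31B, C11orf80 and PPP1R3B followed at 0.102, 0.110 and 0.116. JUN stood at 26.5, 21.3 and 18.3 CPM in LMB and at 21.0, 19.7 and 15.9 CPM in LMB+auxin. As for HSPA1B, its lowest level in each group was in replicate 3. The log2 fold changes with the block were -0.22 for JUN (adjusted p = 0.0474), -0.23 for CEBPB (adjusted p = 0.0734), -0.16 for SEC31B (adjusted p = 0.295), -0.07 for C11orf80 (adjusted p = 0.691) and -0.34 for PPP1R3B (adjusted p = 0.0015). JUN and PPP1R3B did not pass without the block (adjusted p = 0.954 each) or in DESeq2 with it (adjusted p = 0.43 and 0.179). These genes were picked for likeness over these same libraries, and the HSPA1 sum was lower with auxin in 3 of 3 pairs. Their lower levels with auxin, and the low of JUN in replicate 3, follow in part from that choice. They are not a separate result. These points share libraries and depth, and the distance describes likeness only.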

How the data were processed

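Per the labels and the study's methods, the authors prepared stranded total RNA libraries from 3 cultures a group after removal of ribosomal RNA, aligned paired-end reads to GRCh38 with STAR 2.6.1c and counted genes with featureCounts 1.5.2 (base calls with CASAVA 1.8.2; versions from the submitters' processing notes). The deposited table holds raw whole-number counts for each Ensembl gene, not normalized. For counting, strand use and the handling of multi-mapped reads are not given in the sources used here.

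Symbols for 56948 identifiers (98.1%) and loci came from GENCODE 44 (GRCh38). Genes with CPM above 1 in at least 3 of 6 libraries were tested with edgeR 4.0.16 (R 4.3.3, TMM scaling, robust quasi-likelihood fit) on all 6 libraries, without a replicate term. An SE is the size of the log2 fold change over the square root of F. P-values were adjusted over all 16974 tested genes. Scripts were tested on simulated counts.

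Alternatives were the replicate number as a block, DESeq2 1.42.0, limma-voom (limma 3.58.1), other scaling, no filter, the HSPA1 copies summed and each library left out. The authors used DESeq2. Pairing by replicate number was taken from the data, since the labels do not say what a number stands for. Deviations from the group means correlated at r = 0.531, 0.691 and 0.273 across genes for numbers 1, 2 and 3. Between unlike numbers r ran from -0.573 to 0.146. Deviations sum to 0 within a group, so the negative values are partly forced and are not separate evidence for pairing. Number 3 stood out least, since LMB 3 with LMB+auxin 1 gave 0.142 and LMB 1 with LMB+auxin 3 gave 0.146. The block lowered the biological coefficient of variation from 0.0989 to 0.0406.

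The members and lists were chosen with earlier results of these data known. Named were the members, each list's called genes or else its 2 genes of lowest p and its most abundant one, genes overlapping member exons, the 5 genes most like the HSPA1 sum, and TPR. Outside this rule, values are also given for UBB, the most abundant of a list with a called gene, for HSPA5, chosen after its values were seen, and for HSPA6, below the filter. 1 tested gene of the related lists is not reported here.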

Additional observations from a re-analysis of the deposited data

How the results depend on the processing

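No member was called under any of the 19 alternatives. Of 188 recomputed member values 9 had the opposite sign, all small: HSPA1A (0.054 without LMB replicate 2 and 0.039 when LMB+auxin replicate 3 was left out, in a range of -0.113 to 0.054 when 1 library was left out), HSPA8 (-0.071, -0.037 and -0.032 without LMB replicate 3, LMB+auxin replicate 1 and LMB+auxin replicate 2, in a range of -0.071 to 0.122, and -0.006 in the block without replicate 1), HSPB1 (0.035 without LMB replicate 2 and 0.063 when LMB+auxin replicate 1 was left out, in a range of -0.307 to 0.063) and HSF1 (0.002 in the block without replicate 1). The members' median ran from -0.085 to 0.073 when 1 library was left out. With the HSPA1 copies summed, which leaves 9 members, it was 0.017 without and 0.015 with the block, the values of HSPA8. The replicate block raised the calls over all genes from 1 to 201, while DESeq2 gave 11, DESeq2 with the block 30, no filter 39 and library size alone 0 (737 at an unadjusted p under 0.05). With 1 library left out there were 0 to 5 calls, 2 without LMB replicate 2, 5 without LMB+auxin replicate 2 and 0 otherwise (378 to 694 genes at an unadjusted p under 0.05). The block gave 141, 160 and 137 calls without replicate number 1, 2 or 3, 254 with library size alone and 201 with the copies summed. For the related lists the block called 1 gene, also with the copies summed, and 2 genes without replicate 2 (HSF4 and IER5), without replicate 3 (DNAJB9 and IER5) or with library size alone (HSF4 and IER5). The cause of these shifts was not tested. DESeq2 with the block, and the block with a replicate number left out, the copies summed or library size alone, were chosen after seeing the data. In edgeR with all 6 libraries and TMM scaling, the block changed no member's call and only that of IER5 in the related lists. Depth limits HSPA1A most, with at most 40 counts a library.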
